A study of Mus musculus with 6 samples.

Results

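The genes described here build the sarcomere outside the myosin heavy chains: 12 of the thin filament, 6 of titin, the partners of the thick filament and the M-band, 12 of the Z-disc and desmin, and 4 for assembly factors and a kinase. All 34 genes, fixed by name, were found on the array, each with 1 probe set that carried no other symbol, among 30106 genes with a probe set of their own. Affymetrix mouse transcriptome arrays 1.0 were run on tissue bordering the infarct of hearts with myocardial infarction (MI, 3 arrays) and on the matching tissue of sham hearts (3 arrays). All mice were male C57BL/6. In the MI group the left descending coronary artery was tied, sham mice went through the operation without that step, and both were sampled after 4 weeks. Whether the 3 samples of a group were taken from 3 hearts is not said, so every p-value reflects only how much these samples vary, which may be technical. The ages of the mice are not given in the sources used here.

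In the sarcomere, thin filaments of actin, tropomyosin and the troponin complex slide past thick filaments of myosin when calcium binds troponin C. Thin filaments are anchored in the Z-disc by alpha-actinin and a set of PDZ, LIM and immunoglobulin domain proteins, thick filaments are cross-linked in the M-band by myomesins, and titin runs from one to the other. Chaperones, methyltransferases and formins fold myosin and lay down the filaments, and many sarcomere genes have a cardiac form and a slow skeletal or foetal form.

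Every value is a log2 signal as deposited, and a log2 fold change is the mean of the MI arrays minus that of the sham arrays, given with its standard error (SE) where a gene is described in full. Signals of these 34 genes covered almost the whole range of the arrays, with sham means from 4.48 for Mybphl to 19.89 for Tnnt2. The brightest of 23 background controls lay at 5.12 to 6.08 in MI and 5.65 to 5.93 in sham, and array medians were 4.44 to 4.52 in MI and 4.43 to 4.44 in sham. Markers of cardiomyocytes outside the sarcomere were all above these controls in every array. Tnni1, Myom3 and Mybphl lay at or below them in every array and are described as within the background range, which does not mean that they were not expressed. Mybphl also lay under the filter on low signals, a mean of 4.36, so 33 of the 34 genes were tested.

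Most of these genes showed no called difference between the groups. A gene was called at a p under 0.05 from limma, a linear model that shares its estimate of spread across probe sets, after Benjamini-Hochberg adjustment for 32979 probe sets. Of the 33 genes 1 was higher in MI, Pdlim3, and 6 were lower, Unc45b, Lmod3, Mypn, Fhod3, Smyd1 and Ldb3. Over 12048 protein-coding genes 4.31% were called higher and 6.32% lower, and over all probe sets tested 2.97% and 3.64%. The median log2 fold change was -0.10 over the 33 genes and -0.05 over all protein-coding genes tested. The groups did not overlap in 16 of the 33 genes, with MI above in 3 and below in 13, where 16.2% and 26.8% of the protein-coding genes lay above and below. In bulk tissue, fewer cardiomyocytes and less RNA per cardiomyocyte cannot be told apart.

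**Figure D1:**
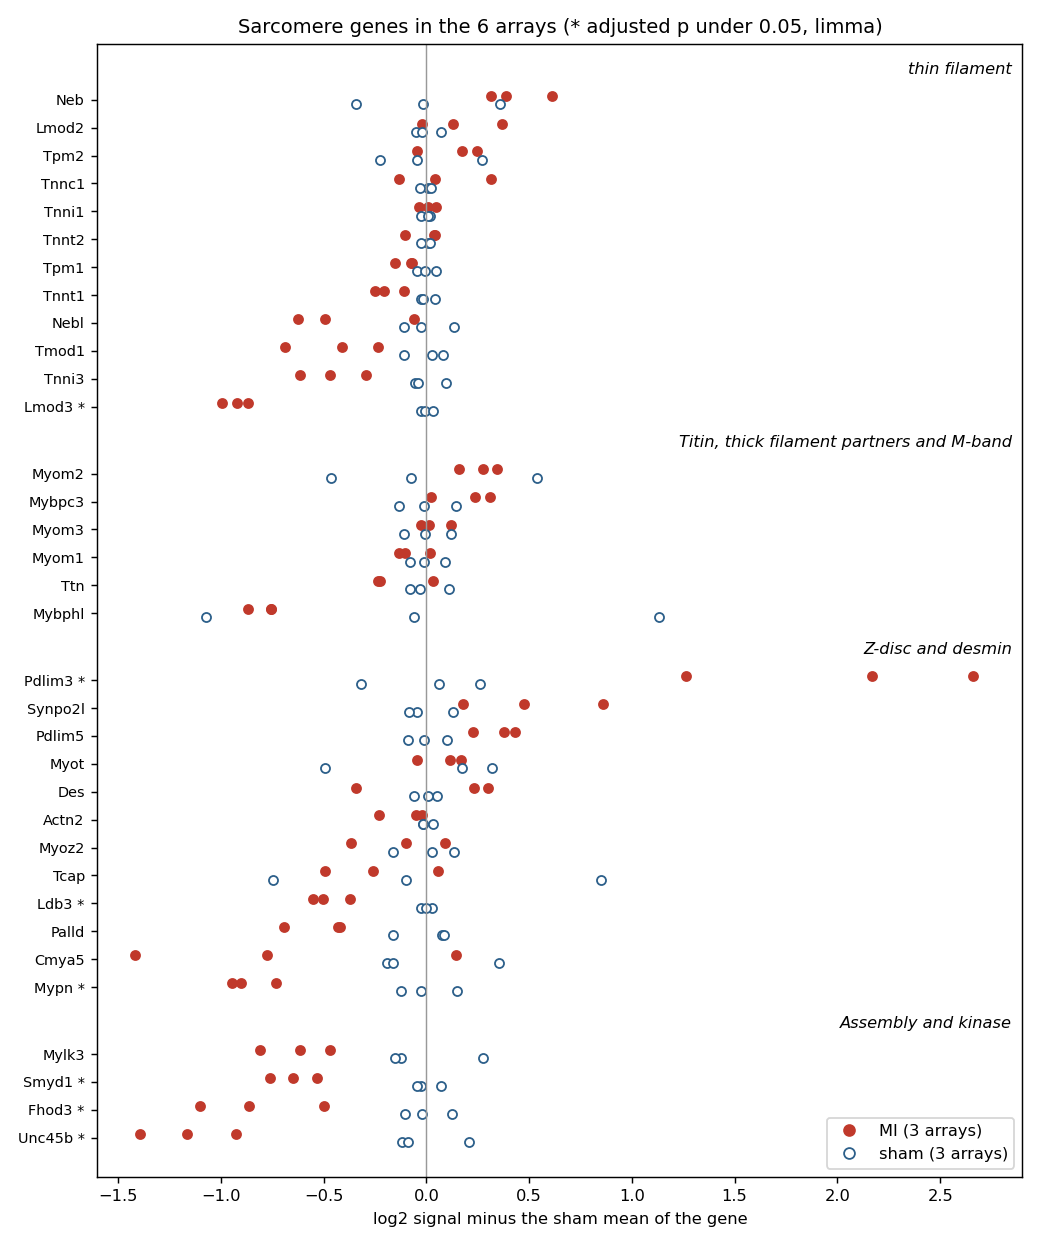
Log2 signal of each of the 34 genes minus its sham mean, with 1 point per array (filled, MI; open, sham), genes grouped by role and an asterisk at an adjusted p under 0.05 from limma. Pdlim3 stands alone on the right, and all 4 assembly and kinase genes lie on the left with no overlap between the groups. Of protein-coding genes with a mean signal of 9 to 16, as these 4 have, 36.4% had MI below sham without overlap.

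These calls depended on single arrays, as did those over all probe sets. With limma, none of the 33 genes was called without MI 1, MI 2, sham 2 or sham 3, where 12, 12, 12 and 11 had an unadjusted p under 0.05, and Lmod3 alone was called without sham 1 (limma adjusted p = 0.0496). Without MI 3, 2 were higher and 9 lower. Of all 32979 probe sets, 4687 were called without MI 3, 327 without sham 1 and 61 without MI 2. Without MI 1, sham 2 or sham 3 the count was 0. Over all single-array omissions the log2 fold change of Unc45b stayed between -1.28 and -1.05, that of Lmod3 between -0.96 and -0.89 and that of Pdlim3 between 1.72 and 2.41.

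The 4 assembly and kinase genes had the lowest median log2 fold change of the 4 role groups. Of 4 genes, 3 were lower at an adjusted p under 0.05 and the fourth, Mylk3, was not called, with a median log2 fold change of -0.73 over the 4. All 4 had a mean signal of 9 to 16. Of protein-coding genes of that level 12.5% were called lower and 36.4% had MI below sham without overlap, with a median of -0.16. Unc45b, a muscle chaperone that folds myosin heads, had signals of 10.08, 10.30 and 10.54 in MI and 11.35, 11.68 and 11.38 in sham. The lowest sham array was thus well above the highest MI array, and the log2 fold change was -1.16 (SE 0.16, limma adjusted p = 0.0209), a difference of 2.24-fold. Smyd1, a muscle-restricted lysine methyltransferase that binds myosin in the sarcomere, had 12.55, 12.78 and 12.66 in MI and 13.28, 13.26 and 13.38 in sham. The groups were again separate, with a log2 fold change of -0.65 (SE 0.10, limma adjusted p = 0.0241).

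Fhod3, a formin that cardiomyocytes need to organise actin into thin filaments, had signals of 10.64, 10.41 and 11.01 in MI and 11.63, 11.40 and 11.49 in sham. MI 3 lay nearest to the sham arrays, and the log2 fold change was -0.82 (SE 0.17, limma adjusted p = 0.0460). Its call was lost with no filter on low signals and with the trend and robust options of limma. Mylk3, the cardiac kinase of the regulatory myosin light chain, had 14.03, 13.84 and 14.18 in MI and 14.92, 14.53 and 14.50 in sham. The groups did not overlap, but the log2 fold change of -0.63 (SE 0.16) did not pass the threshold (limma adjusted p = 0.0687). It was called after quantile normalization, with a log2 fold change of -0.91.

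The Z-disc group of 12 genes held the only gene called higher and 2 called lower. Of all protein-coding genes 4.31% were called higher and 6.32% lower, and of those with a mean of 9 to 16, 4.35% and 12.5%. Pdlim3, a PDZ and LIM domain protein that binds alpha-actinin, had signals of 11.47, 10.98 and 10.07 in MI and 8.49, 9.07 and 8.87 in sham. The groups were far apart, with the lowest MI signal in MI 3, and the log2 fold change was 2.03 (SE 0.36, limma adjusted p = 0.0329), a difference of 4.09-fold. Its SD was 0.71 in MI and 0.29 in sham (n = 3 each). Pdlim5, a related PDZ and LIM protein of the Z-disc, had 11.54, 11.59 and 11.39 in MI and 11.15, 11.26 and 11.07 in sham. It too lay higher in every MI array, but by a log2 fold change of only 0.35 that was not called (limma adjusted p = 0.103).

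The Z-disc genes called lower were Mypn and Ldb3. Mypn, myopalladin, which ties nebulin or nebulette to alpha-actinin, had signals of 11.57, 11.74 and 11.53 in MI and 12.35, 12.62 and 12.45 in sham. Its groups were far apart relative to their spread, and the log2 fold change was -0.86 (SE 0.11, limma adjusted p = 0.0200). Ldb3, also known as Cypher or ZASP, a PDZ protein that steadies the Z-disc under load, had 13.34, 13.21 and 13.16 in MI and 13.74, 13.69 and 13.71 in sham. The sham arrays differed by only 0.05, and the log2 fold change was -0.48 (SE 0.09, limma adjusted p = 0.0370). The call of Ldb3 was lost after quantile normalization, where its log2 fold change was -0.70 (limma adjusted p = 0.0541), and with the trend and robust options, where it was -0.48 as before (limma adjusted p = 0.0531). That of Mypn was kept in both.

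Palld, palladin, the relative of myopalladin that is also made by non-muscle cells, had signals of 11.75, 11.74 and 11.48 in MI and 12.01, 12.25 and 12.26 in sham. All MI values were below all sham values, with a log2 fold change of -0.51 that was not called (limma adjusted p = 0.0650). Synpo2l, a Z-disc protein of the synaptopodin family, had 9.68, 10.06 and 9.38 in MI and 9.16, 9.12 and 9.34 in sham. MI 3 was barely above the highest sham array, and the log2 fold change of 0.50 was not called (limma adjusted p = 0.162). Cmya5, myospryn, which binds desmin and alpha-actinin, was the most scattered of the Z-disc genes among the MI arrays, with 12.66, 12.01 and 13.58 in MI and 13.78, 13.24 and 13.27 in sham. MI 3 lay within the sham range, and the log2 fold change of -0.68 had an SE of 0.40 (limma adjusted p = 0.346). It was -0.31 without MI 2 and -1.10 without MI 3.

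The structural core of the Z-disc showed no called difference. Actn2, alpha-actinin itself, had signals of 18.62, 18.65 and 18.44 in MI and 18.65, 18.70 and 18.65 in sham, a log2 fold change of -0.10 (limma adjusted p = 0.553). The highest MI value lay only marginally under the lowest sham value, and the array maximum was likewise lowest in MI 3, at 19.79. Without MI 3 the log2 fold change of Actn2 was -0.04. Des, Myoz2 (calsarcin-1, which binds calcineurin), Myot (myotilin) and Tcap (telethonin, which caps the Z-disc end of titin) had log2 fold changes from -0.23 to 0.08 and overlapping groups. Their directions, except that of Myoz2, turned on single arrays: with 1 array left out Tcap ran between -0.61 and 0.19, Des between -0.06 and 0.27 and Myot between -0.17 and 0.24. Tcap varied more among the sham arrays than any other tested gene of the 34, from 12.76 in sham 2 to 14.36 in sham 1.

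**Figure D2:**
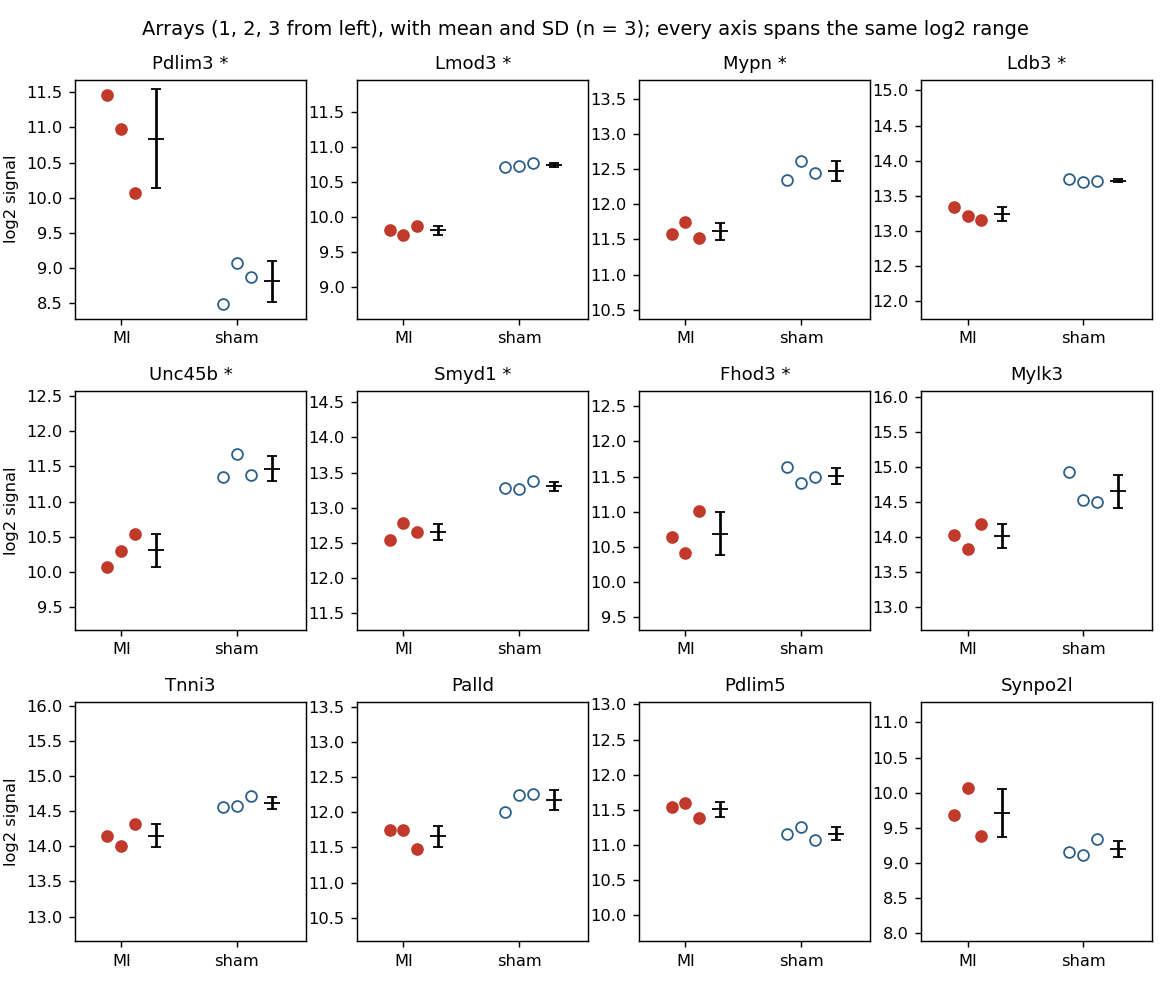
Log2 signals of 12 genes in the MI arrays (filled points, left) and sham arrays (open points, right), with the mean and SD of each group (n = 3), every axis spanning the same number of log2 units. An asterisk marks the 7 genes at an adjusted p under 0.05 from limma; Pdlim3 had MI signals of 10.07 or more, against sham signals of 9.07 or less.

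Promoter windows of the called genes are shown because 4 of those with a window fell together in MI while Pdlim3 rose. RefSeq windows on GRCm38.p6, 250 bases before to 50 after the annotated start, matched 28 of the 34 genes with 39 windows. Lmod3, Neb, Myom2, Tcap, Myot and Fhod3 had none in the table. Both strands were searched for 4 letter patterns of muscle promoters: the CArG box bound by SRF, the MEF2 site, CATTCC (the M-CAT core bound by TEAD factors) and CAGCTG (an E-box). The windows below run 5′ to 3′ on the strand of the gene, and capitals mark a match on either strand. They lie at chr8:45885237-45885536 (plus strand) for Pdlim3, chr10:63203903-63204202 (minus strand) for Mypn, chr14:34588632-34588931 (minus strand) for Ldb3, chr11:82911003-82911302 (plus strand) for Unc45b and chr6:71262232-71262531 (minus strand) for Smyd1.
Pdlim3: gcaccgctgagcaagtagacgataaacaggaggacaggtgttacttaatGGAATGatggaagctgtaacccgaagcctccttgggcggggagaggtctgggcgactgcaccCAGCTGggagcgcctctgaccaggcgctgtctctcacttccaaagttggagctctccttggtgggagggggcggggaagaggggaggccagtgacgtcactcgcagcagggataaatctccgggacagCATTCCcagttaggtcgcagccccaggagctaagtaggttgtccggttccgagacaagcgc
Mypn: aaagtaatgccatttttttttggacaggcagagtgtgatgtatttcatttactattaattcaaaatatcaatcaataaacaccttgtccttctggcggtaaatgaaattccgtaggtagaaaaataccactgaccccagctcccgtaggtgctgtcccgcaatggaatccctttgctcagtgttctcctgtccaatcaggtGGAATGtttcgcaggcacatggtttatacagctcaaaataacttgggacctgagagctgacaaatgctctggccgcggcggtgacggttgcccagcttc
Ldb3: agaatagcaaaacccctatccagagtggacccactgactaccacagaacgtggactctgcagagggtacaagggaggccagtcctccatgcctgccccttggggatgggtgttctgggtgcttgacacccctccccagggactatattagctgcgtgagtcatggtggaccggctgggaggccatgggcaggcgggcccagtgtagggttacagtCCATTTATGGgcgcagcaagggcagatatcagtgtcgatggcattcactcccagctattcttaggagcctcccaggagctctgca
Unc45b: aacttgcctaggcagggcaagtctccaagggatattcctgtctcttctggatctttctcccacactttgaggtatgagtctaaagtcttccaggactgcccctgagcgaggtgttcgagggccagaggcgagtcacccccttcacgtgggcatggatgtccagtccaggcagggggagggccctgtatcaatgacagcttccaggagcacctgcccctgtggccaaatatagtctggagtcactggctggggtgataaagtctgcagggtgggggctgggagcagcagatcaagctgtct
Smyd1: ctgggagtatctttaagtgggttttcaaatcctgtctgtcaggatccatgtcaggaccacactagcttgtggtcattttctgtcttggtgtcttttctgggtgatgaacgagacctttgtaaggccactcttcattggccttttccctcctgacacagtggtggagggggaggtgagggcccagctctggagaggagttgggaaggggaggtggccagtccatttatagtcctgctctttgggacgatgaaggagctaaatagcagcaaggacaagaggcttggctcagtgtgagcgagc
Counted from the start, with bases before it negative, Pdlim3 held 2 CATTCC matches, at -201 to -196 and at -11 to -6, and 1 CAGCTG match at -139 to -134. Mypn held 1 CATTCC match at -49 to -44, and Ldb3 held 1 CArG box at -35 to -26 in the window shown. A further annotated start of Ldb3 has an overlapping window, where the same box lies at -109 to -100, so it is counted in both. Unc45b and Smyd1 held no match to the 4 patterns in these windows, and no matches of different patterns overlapped in any window shown. Over the 39 windows of these genes, some of which belong to the same gene and overlap, CArG boxes were in 4 (10.3%) against 1.63% of all 32851 windows, MEF2 sites in 6 (15.4%) against 3.19%, CATTCC in 10 (25.6%) against 14.7% and CAGCTG in 12 (30.8%) against 16.3%. Ldb3 was the only called gene among the 3 with a CArG box, beside Myom1 and Nebl, and the genes with a MEF2 site, Mybpc3, Myom3, Myoz2, Synpo2l and Ttn, were not called. These matches describe letters only and show no binding.

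In the thin filament, Lmod3 was lower in MI and the main troponin and tropomyosin genes showed no called difference. Lmod3 was the only 1 of these 12 genes called, where 6.32% of all protein-coding genes were called lower. Lmod3, a leiomodin that starts and lengthens actin filaments at their pointed ends, had signals of 9.82, 9.74 and 9.87 in MI and 10.71, 10.73 and 10.77 in sham. The arrays within each group differed by less than 0.13 in MI and 0.06 in sham, and the log2 fold change of -0.93 (SE 0.08, limma adjusted p = 0.0119) was a difference of 1.90-fold. Lmod2, the leiomodin most abundant in heart, had 15.71, 15.86 and 16.10 in MI and 15.80, 15.68 and 15.71 in sham. Its groups overlapped, with a log2 fold change of 0.16 (limma adjusted p = 0.474). Tmod1, the tropomodulin that caps the same filament end, had 13.17, 13.34 and 12.89 in MI and 13.47, 13.61 and 13.66 in sham. All MI arrays were lower, and the log2 fold change of -0.45 was not called (limma adjusted p = 0.117).

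Tnni3, cardiac troponin I, the inhibitory subunit and a plasma marker of heart injury, had signals of 14.14, 14.00 and 14.32 in MI and 14.55, 14.57 and 14.71 in sham. The groups were separate, and the log2 fold change of -0.46 (SE 0.11) missed the threshold (limma adjusted p = 0.0693). With each array centred on its median it was called, at -0.50 (limma adjusted p = 0.0438), and after quantile normalization too, at -0.72. Tnnc1, the calcium-binding troponin C, had 17.91, 17.73 and 18.18 in MI and 17.88, 17.89 and 17.83 in sham, so that the MI arrays lay on both sides of the sham arrays. Some of these Tnnc1 values followed the array maximum, as described below for Tnnt2. Tpm1, the main cardiac tropomyosin, had 11.46, 11.45 and 11.38 in MI and 11.49, 11.53 and 11.58 in sham. Every MI value was lower, yet the log2 fold change of -0.10 was not called (limma adjusted p = 0.506).

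Tnnt2, cardiac troponin T, cannot show a change in these data. It was the 1 gene of the 34 with a sham mean above 19 and was set apart for that reason, with 19.93, 19.93 and 19.79 in MI and 19.90, 19.91 and 19.86 in sham. In 5 of the 6 arrays its signal equalled the highest value on the array, and in MI 2 it was 0.003 below it. Between 50 and 100 probe sets per array shared that same top value, so the log2 fold change of -0.0083 follows the array maxima. No other of the 34 genes came within 1.21 of the array maximum, but a gene further below can still follow it. Tnnc1 kept the same distance to the array maximum in MI 1, sham 1 and sham 2. Over all 6 arrays that distance ran from 1.61 to 2.20. The log2 fold change of Tnnc1, 0.07, thus also depends in part on the array maxima. Tpm1 likewise lay equally far below the maximum in MI 3 and sham 1, and Actn2, to within rounding, in sham 2 and sham 3. How far the array maxima enter the log2 fold changes of Tpm1 and Actn2, -0.10 each, was not tested.

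The slow skeletal and foetal forms of troponin lay at the low end. Tnni1, slow skeletal troponin I, stayed between 4.57 and 4.65 in all 6 arrays, within the background range. Tnnt1, slow skeletal troponin T, had 5.68, 5.72 and 5.82 in MI and 5.90, 5.97 and 5.91 in sham, near the highest background control. The MI values were all lower, by a log2 fold change of -0.19 that was not called (limma adjusted p = 0.248). Tpm2, the beta tropomyosin of slow muscle, had a log2 fold change of 0.13 and overlapping groups (limma adjusted p = 0.661).

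Neb, nebulin, the ruler of skeletal thin filaments, had 6.43, 6.72 and 6.50 in MI and 6.09, 6.47 and 5.77 in sham, with a log2 fold change of 0.44 that was not called (limma adjusted p = 0.233). Of 12 skeletal muscle markers 9 were tested, 2 were called higher in MI, Tnnt3 and Myh2, and 7 were not called, among them Casq1 with a log2 fold change of -0.54. In 6 of the 9 MI lay above sham without overlap. Over all protein-coding genes tested 4.31% were called higher and 16.2% had MI above without overlap. The mean signal over the 12 was 5.32 to 5.93 in MI and 5.04 to 5.17 in sham, highest in MI 2 as for Neb. In 7 of the 9 the sham signals were within the background range, and Myh8, Tnni2, Mylpf and Ryr1 were within it in all 6 arrays. Their part in the value of Neb was not tested. Nebl, nebulette, the cardiac relative that sits at the Z-disc, had 11.41, 11.28 and 11.85 in MI and 12.04, 11.80 and 11.88 in sham. MI 3 lay inside the sham range, and the log2 fold change was -0.39 (limma adjusted p = 0.220).

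Titin, the thick filament partners and the M-band held no called gene. Ttn, the giant spring of the sarcomere, had signals of 17.25, 17.26 and 17.52 in MI and 17.60, 17.45 and 17.41 in sham, and MI 3 lay inside the sham range. Its log2 fold change was -0.14 (SE 0.11, limma adjusted p = 0.488). Mybpc3, cardiac myosin-binding protein C, had 17.61, 17.54 and 17.33 in MI and 17.45, 17.17 and 17.29 in sham, a log2 fold change of 0.19 (limma adjusted p = 0.393). The myomesins that cross-link the thick filaments overlapped as well, with log2 fold changes of -0.07 for Myom1 and 0.26 for Myom2. Myom2 lay between 16.26 in sham 2 and 17.26 in sham 1, a far wider range than the 0.18 among the MI arrays.

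Mybphl, a myosin-binding protein known mainly from atrial muscle, was not tested and read 3.61, 3.72 and 3.72 in MI and 3.40, 5.61 and 4.42 in sham, all within the background range. Myl7, the atrial myosin light chain, had 4.70, 4.51 and 4.78 in MI and 4.95, 11.19 and 8.43 in sham. Both were low in all MI arrays and in sham 1, and highest in sham 2. Myom3, a myomesin of skeletal muscle, stayed between 4.64 and 4.88 in all arrays.

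The brightest genes were not among those called. The 9 genes with a mean above 16, namely Tnnt2, Tnnc1, Ttn, Mybpc3, Myom1, Myom2, Actn2, Myoz2 and Des, had log2 fold changes from -0.14 to 0.26, and none was called by limma. Their median, -0.0083, was the value of Tnnt2 itself, which lies at the array maximum. Of these 9, MI lay above sham in 0 and below in 1, where 7.21% and 45% of protein-coding genes above 16 did. Of the 19 genes with a mean of 9 to 16, 1 was called higher and 6 lower, with a median of -0.46. Groups were apart with MI above in 3 and below in 11 of the 19, against 13.1% and 36.4% of protein-coding genes of that level. Over protein-coding genes with a mean of 9 to 16, 4.35% were called higher and 12.5% lower, with a median of -0.16, and over those above 16 the shares were 4.5% and 15.3%, with a median of -0.23. At these levels lower calls were thus more frequent than over all genes.

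**Figure D3:**
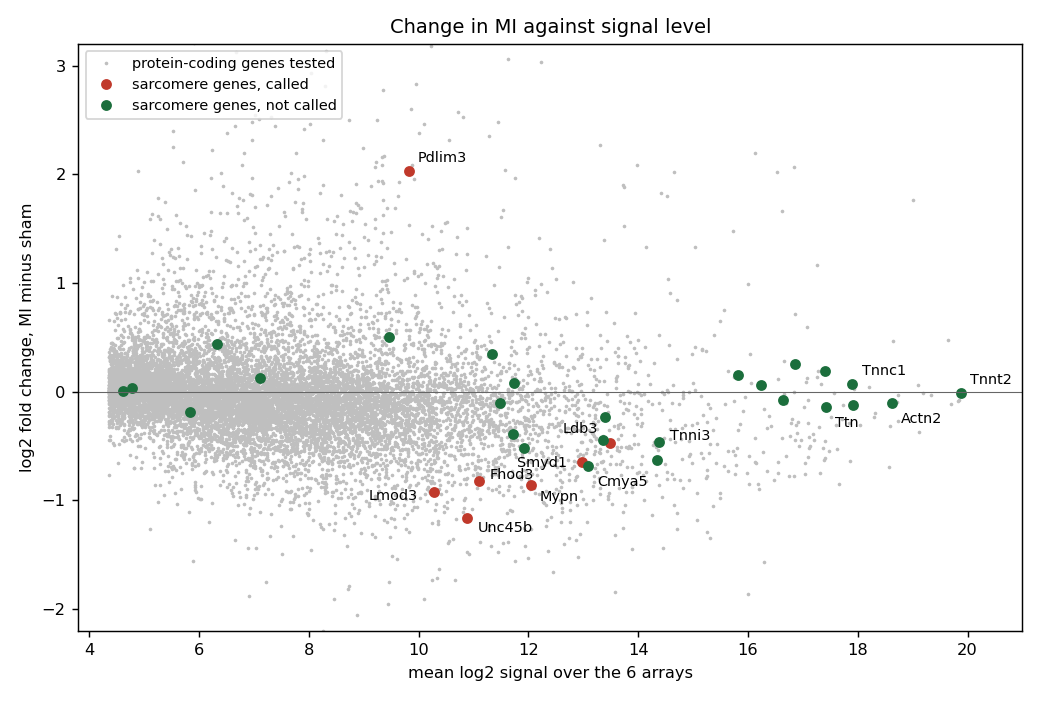
Log2 fold change, MI minus sham, against the mean log2 signal over the 6 arrays, for the protein-coding genes tested (grey) and the 33 sarcomere genes tested (red, called; green, not called). A further 46 genes lie outside the vertical range; the 9 sarcomere genes above a mean of 16 lie between -0.14 and 0.26.

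The values of the brightest genes depended on the scaling. As deposited, 13 of the 33 genes had a positive and 20 a negative log2 fold change. After quantile normalization the split was 5 and 28, and the median of the 33 was -0.36. The shift went with signal level: the 9 genes above a mean of 16 then had a median of -0.32 (-0.41 to -0.00017), and all protein-coding genes above 16 had a median of -0.53 after quantile normalization and of -0.23 as deposited. Over protein-coding genes of every level the median was -0.09 after quantile normalization. Des, Tnni1, Mybpc3, Myom3, Lmod2, Myom2, Tnnc1 and Myot changed sign, all of them not called in either scaling. Centring each array on its median turned Tnni1 and Myom3 only. None of the 7 called genes changed sign under either scaling.

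Related genes were compared within each array to see whether 2 of them changed unequally. Of 11 pairs, 7 had both genes tested, outside the background range and below the array maximum, and in 4 of these the groups did not overlap. How often pairs of other genes lie apart was not computed. Of single protein-coding genes, 16.2% had MI above and 26.8% below without overlap. The MI mean minus the sham mean was -1.09 for Lmod3 minus Lmod2 (SE 0.11) and -1.68 for Pdlim5 minus Pdlim3 (SE 0.39). It was 0.35 for Palld minus Mypn (SE 0.09) and -0.59 for Palld minus Myot (SE 0.29). These last 2 pairs share Palld and are not separate observations. For each of the 4 the exact permutation test, two-sided, gave p = 0.1, the smallest that 3 arrays against 3 allow, and 0.22 after adjustment over the 11 pairs. Neb minus Nebl had a difference of 0.83 with overlapping groups (exact permutation p = 0.2).

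**Figure D4:**
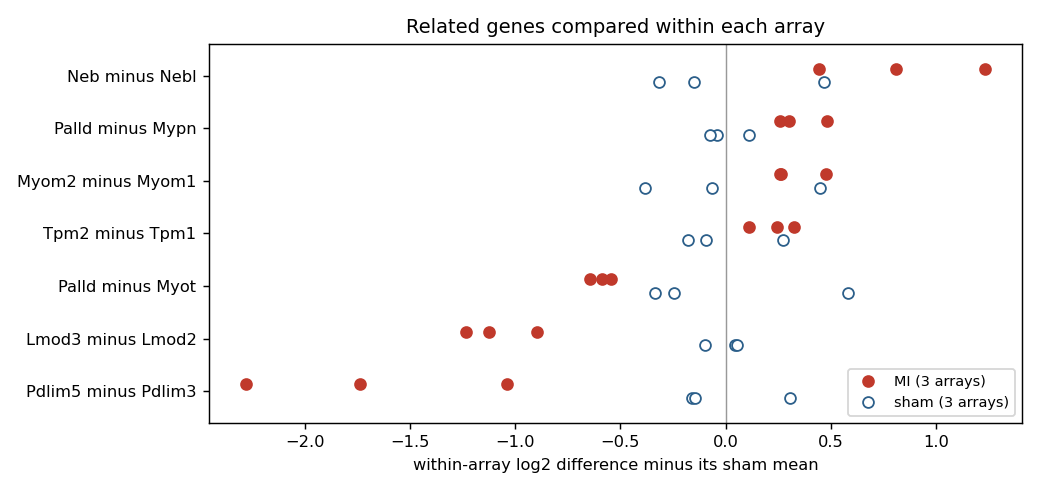
Within-array log2 difference of 2 related genes minus its sham mean, with 1 point per array (filled, MI; open, sham) for the 7 pairs that could be read. The MI arrays lie apart from the sham arrays for Pdlim5 minus Pdlim3, Lmod3 minus Lmod2, Palld minus Mypn and Palld minus Myot.

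Of 51 further sarcomere genes on a list that holds none of the 34, 49 had a probe set and 44 were tested. With limma 2 of these were called higher and 5 lower in MI. The shares were 4.31% and 6.32% of all protein-coding genes and 4.35% and 12.5% of those with a mean of 9 to 16. Xirp2, an actin-binding protein of the Z-disc and intercalated disc, had the largest called rise, a log2 fold change of 1.80 (SE 0.14, limma adjusted p = 0.00955), with 15.42 ± 0.21 in MI and 13.62 ± 0.14 in sham (SD, n = 3 each). Tnnt3, fast skeletal troponin T, rose by 1.02 on the log2 scale, and its sham arrays were all within background. The largest called decreases were those of Tmod4, the tropomodulin of skeletal muscle (-1.02), Myh7b, a slow-type myosin heavy chain (-0.79), Ablim1, an actin-binding LIM protein (-0.77), and Trim55, a ubiquitin ligase of the M-band (-0.77). Speg, a kinase of the myosin light chain kinase family, was the fifth. Myh7, the slow beta myosin, had a larger log2 fold change, 2.07, that was not called (limma adjusted p = 0.0746). The median over the 44 was -0.09, close to that of the 33.

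Most fibroblast markers and part of the macrophage markers were called higher in MI. Of 7 tested fibroblast markers 6 were called higher, with a mean signal of 12.65 to 13.65 in MI and 9.95 to 10.31 in sham. Among the MI arrays that mean was lowest in MI 3, as for Pdlim3. Of 7 macrophage markers 3 were called higher (mean 9.83 to 10.48 in MI and 8.63 to 9.31 in sham). Among all protein-coding genes tested 4.31% were called higher. None of 5 smooth muscle markers (mean 9.29 to 9.68 in MI and 9.16 to 9.76 in sham) or 6 endothelial markers (11.83 to 12.15 in MI and 12.05 to 12.29 in sham) was called. All 6 endothelial markers had a negative log2 fold change, with a median of -0.16. Of 12 cardiomyocyte markers outside the sarcomere, all had a negative log2 fold change and 2 were called lower, Kcnj2 and Corin, with a median of -0.23 and a mean signal of 15.03 to 15.29 in MI and 15.57 to 15.66 in sham. Of protein-coding genes with a mean of 9 to 16, 12.5% were called lower and 1925 of 2830 were negative, and of those above 16, 15.3% were called lower and 83 of 111 were negative. Some of these 12 genes lay at the array maximum or followed it: Mb (-0.0073) kept a fixed distance to the array maximum in all 6 arrays, Fabp3 and Pln kept one in the sham arrays, and Atp2a2 lay at the maximum or within 0.0004 of it in the sham arrays. The mean over the 34 sarcomere genes was 12.39 to 12.40 in MI and 12.52 to 12.58 in sham. The part of these cell types in the values of the sarcomere genes was not tested, and no fibroblast, macrophage, endothelial or smooth muscle marker was within the background range in all arrays.

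**Figure D5:**
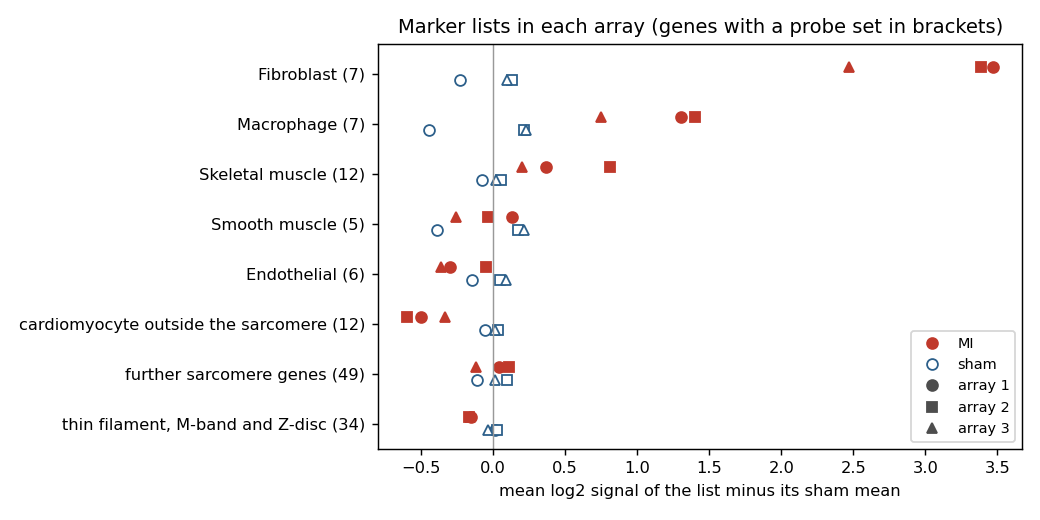
Mean log2 signal of each marker list minus its sham mean, per array (filled, MI; open, sham; circle, square and triangle for arrays 1, 2 and 3), with the number of genes that had a probe set. Fibroblast markers averaged at least 12.65 in MI, against at most 10.31 in sham, while the 34 sarcomere genes averaged 12.39 to 12.40 in MI, against 12.52 to 12.58 in sham.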

How the data were processed

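Total RNA of 6 samples (3 MI, 3 sham) was hybridized to Affymetrix mouse transcriptome arrays 1.0. The authors deposited log2 signals, computed in Affymetrix Expression Console by RMA with SKETCH, and no further scaling was done. Their array maxima, 19.79 to 19.93, exceed the log2 range of a 16-bit scanner. The step that gave such values is not described in the sources. The deposited table keeps all 72688 probe sets, low ones included, and 6732 controls were left out here. Symbols come from the platform table and were brought up to date through RefSeq (GRCm38.p6), while the build behind the array was not named in the sources.

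A mean signal of 4.36, the median over transcript probe sets, was the minimum for testing. The groups were fitted by limma 3.58.1 (R 4.3.3) without covariates, two-sided, and p-values were Benjamini-Hochberg adjusted across 32979 probe sets at a threshold of 0.05. limma was tested on simulated data. Members and lists were chosen with earlier results of these data known. Values per array are given for genes that were called, whose groups did not overlap or whose log2 fold change was 0.5 or more in size, and for others where a comparison needed them. From the further sarcomere genes up to 4 called each way were named by size; Speg, Myh7, Myl7, Kcnj2 and Corin were named after their values were seen. The alternatives were no filter, a 75th percentile filter (6.30), the t-test of the methods, trend and robust options, array weights, gene means, centring on the median, a further quantile step, a block for the replicate number and omission of each array. The number of arrays limits the precision. At most 158 probe sets had the same value in any pair of arrays. Python 3.11.15, pandas 2.3.3 and matplotlib 3.10.9 were used for tables and figures.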

Additional observations from a re-analysis of the deposited data

How the results depend on the processing

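The 1 higher and 6 lower genes were the count with all 6 arrays. The methods' t-test, run on the same values, called 0 higher and 1 lower, with 13 of the 33 genes at an unadjusted p under 0.05, as with limma. Array weights called 4 higher and 13 lower. Of all 32979 probe sets, array weights called 10760 and the t-test 272, against 2180 in the main fit. Leaving out 1 array gave 0 to 2 higher and 0 to 9 lower, with 11 to 17 of the genes at an unadjusted p under 0.05 from limma, and the number of probe sets called overall was 0 to 4687. With the replicate number as a block (replicate block), limma called 0 higher and 0 lower, with 13 at an unadjusted p under 0.05. It called 0 of all 32979 probe sets. The deviations of same-numbered arrays correlated at -0.29, 0.35 and -0.37 for numbers 1, 2 and 3. With 3 arrays per group these correlations cannot decide whether the numbers pair the samples, and the labels do not say. The other settings left 1 higher and 4 to 7 lower, with 1581 to 2405 of all probe sets called. Leaving out both MI 3 and sham 1, whose deviations correlated at 0.50, was chosen after seeing the data and gave 1 higher and 8 lower. That setting called 4432 of all probe sets. Each gene has 1 probe set, so the mean over the probe sets of a gene kept every value and the calls of 1 higher and 6 lower. Of the 11 pairs, 5 had groups that did not overlap, 5 to 8 when 1 array was left out (8 without MI 3 and without sham 1) and 10 by the sign of all 3 same-numbered differences in the replicate block.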
